A study of Mus musculus with 16 samples.

Results

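Out-of-frame rearrangements of the T cell receptor β locus that nevertheless reached a high template count were described in tumor T cells. The tumors grew under the skin of female C57BL/6 mice from KPC.Luc cells, a mouse pancreatic ductal adenocarcinoma line that expresses luciferase. Each deposited rearrangement is a stretch of 87 nucleotides across the join of the V, D and J gene segments, with a reading frame call and a template count, the number of starting molecules that carried it. The frame call is In (in frame), Out (out of frame) or Stop (holding a stop codon). The rearrangements described here were chosen by those values, as Out rearrangements of 20 or more templates in a sample, and 911 of 198953 rearrangements met the rule. They were 911 of 70245 Out rearrangements. Because frame and template count chose them, their counts against those of other rearrangements are a description, with no test. Tests on them were kept to differences between treatment groups and to V and J genes, inserted nucleotides and CDR3 length, none of which the rule used directly. Most measures compared between treatment groups are themselves built from frame and template count. The cut fell in a continuous range, with 51 rearrangements at 20 templates and 50 Out rearrangements at 19.

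The 16 samples fell into 4 groups of 4. Control mice were given scrambled peptide and isotype IgG. ANT008 mice were given ANT008, a peptide antagonist of the receptors for vasoactive intestinal peptide, with isotype IgG. Anti-PD-1 mice were given scrambled peptide and anti-PD-1, and combination mice were given ANT008 and anti-PD-1. In all groups the peptide dose was 10 µg daily and the antibody dose 200 µg every 3 days, over 10 days. The labels call the samples T cells and name magnetic selection of tumor suspensions on CD90.2, which does not give a pure population, whereas the study's account of the receptor sequencing names tumors with no such selection. The values hold receptor rearrangements alone, so no other marker of cell type could be checked. Total templates per sample ran from 11317 to 99411, so a cut at 20 templates stood for a larger share of the shallow samples. The study counts 4 mice in a group, and the tests measure the spread between these samples. The study's results name DNA as the template, and its methods and the labels name RNA. With DNA a template is a copy of an allele, and with RNA it is a transcript, in which case fewer cells of a clone and less RNA per cell cannot be told apart.

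As background, a developing T cell joins D to J on both alleles of the β locus and then V to DJ on one of them. If that join is out of frame, no receptor chain results, and the cell can try the other allele. A mature T cell can therefore carry an in-frame and an out-of-frame rearrangement side by side, and every daughter of an expanded clone inherits both. The out-of-frame partner encodes no β chain, so it records how rearrangement took place without having been selected for what the receptor binds. The mouse locus holds 2 D-J clusters: Trbd1 lies before the Trbj1 genes (the J1 cluster), and Trbd2 and the Trbj2 genes (the J2 cluster) follow.

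The pairs below are shown as examples of an Out rearrangement of over 1000 templates with exactly 1 In rearrangement of the same sample within 10% of its template count. The bases in capitals lie between the V and the J segment, that is, inserted nucleotides and the D segment. In control replicate 2, the Out rearrangement joined Trbv3 to Trbj2-3 and held 7776 templates, and the In rearrangement joined Trbv1 to Trbj2-2 and held 7510. In combination replicate 3, an Out rearrangement of Trbv15 and Trbj1-3 with 3270 templates stood beside an In rearrangement of Trbv2 and Trbj2-3 with 3406. In anti-PD-1 replicate 3, the Out rearrangement of Trbv29 and Trbj1-4 held 1183 templates and the In rearrangement of Trbv1 and Trbj1-4 held 1186. That In rearrangement was also the only one within 10% of another Out rearrangement of the sample, with 1148 templates.
Control replicate 2, Out: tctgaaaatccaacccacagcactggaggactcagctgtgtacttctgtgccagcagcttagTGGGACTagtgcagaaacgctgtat
Control replicate 2, In: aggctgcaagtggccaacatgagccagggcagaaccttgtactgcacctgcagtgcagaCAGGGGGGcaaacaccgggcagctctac
Combination replicate 3, Out: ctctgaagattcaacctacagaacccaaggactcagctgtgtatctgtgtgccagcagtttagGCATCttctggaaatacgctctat
Combination replicate 3, In: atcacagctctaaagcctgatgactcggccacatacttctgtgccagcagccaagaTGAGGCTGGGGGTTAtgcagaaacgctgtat
Anti-PD-1 replicate 3, Out: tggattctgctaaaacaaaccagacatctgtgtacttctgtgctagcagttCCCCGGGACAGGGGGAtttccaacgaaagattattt
Anti-PD-1 replicate 3, In: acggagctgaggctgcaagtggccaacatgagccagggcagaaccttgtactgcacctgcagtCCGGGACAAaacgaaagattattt
In none of these 3 pairs do the V segments match, and the bases in capitals are not the same as a whole, as printed. In the pair of anti-PD-1 replicate 3 the capitals of both hold CCGGGACA, and both were called Trbd1 and Trbj1-4. Equal counts alone do not show that both lay in the same cells, and no value here links rearrangements to single cells.

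Every sample held such rearrangements. Their number was 36, 65, 73 and 72 in the control samples, 46, 59, 15 and 38 in the ANT008 samples, 49, 54, 119 and 22 in the anti-PD-1 samples and 65, 49, 91 and 58 in the combination samples, in the order of the replicates. The groups overlapped throughout. Together they held 104220 templates, and most were small: the median was 41 templates, 524 had 20 to 49, 184 had 100 or more and 33 had 500 or more. For every 100 In rearrangements of 20 or more templates, a sample held 30.4 Out rearrangements of that size at the lowest, in ANT008 replicate 4, and 50 at the highest, in anti-PD-1 replicate 4. The median was 40.2.

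As a share of all templates of a sample, they made up 5.61% in ANT008 replicate 3 (95% Wilson interval, 5.26 to 5.99) at the lowest and 24.4% in control replicate 2 (24.04 to 24.70) at the highest, with a median of 11.9%. Such intervals cover counting error only. As a share of the Out templates alone, they made up 23.7% to 70.1%, although they were 0.862% to 3.17% of the Out rearrangements. A larger share of templates than of rearrangements follows from the cut itself. In rearrangements of 20 or more templates made up 33.7% to 79.6% of the In templates.

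**Figure D1:**
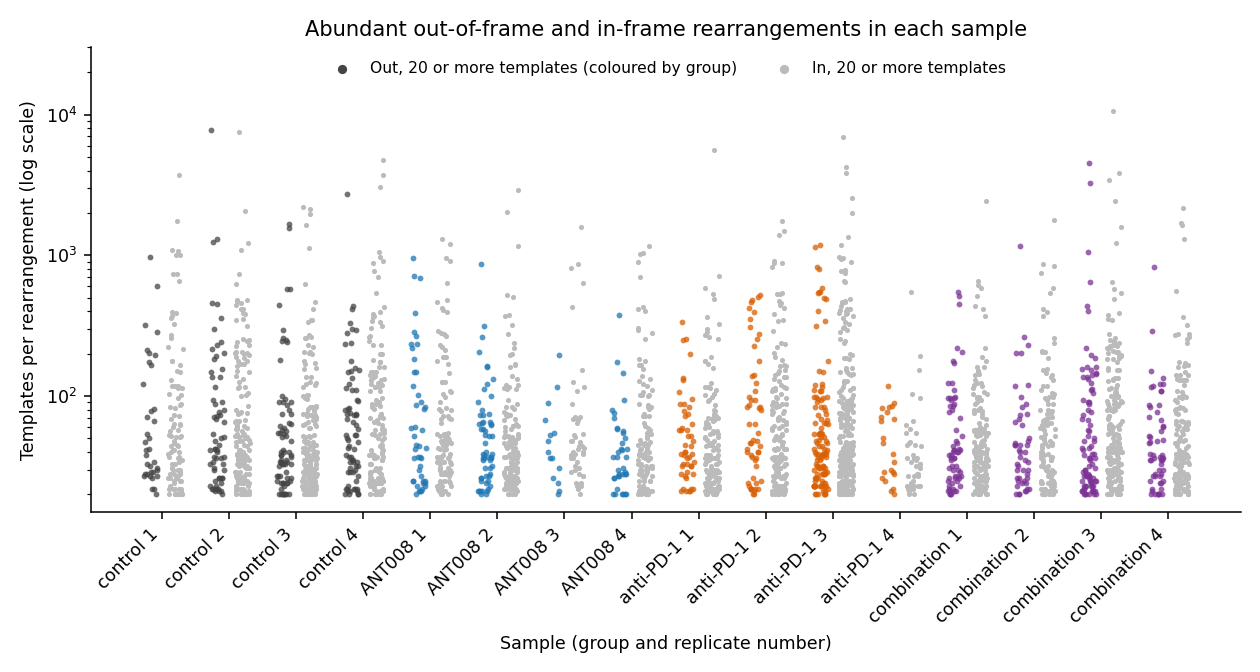
Templates (log scale) of each Out rearrangement of 20 or more templates, coloured by group, and of each In rearrangement of that size, in grey, in the 16 samples. Control replicate 2 is the only sample whose largest point is an Out rearrangement, at 7776 templates.

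The largest Out rearrangement of each sample was compared with its largest In rearrangement. In the control samples the largest Out rearrangements held 966, 7776, 1664 and 2726 templates and the largest In rearrangements 3730, 7510, 2193 and 4737. In the ANT008 samples they held 951, 868, 196 and 379 templates against 1311, 2906, 1589 and 1167. Control replicate 2 was the only sample of the 16 in which an Out rearrangement exceeded every In rearrangement. There the Trbv3 rearrangement took 7776 of 64792 templates (95% Wilson interval, 11.8 to 12.3%). In the anti-PD-1 samples the largest Out rearrangements held 338, 521, 1183 and 117 templates against 5640, 1741, 6872 and 544 for In. In the combination samples they held 545, 1156, 4538 and 820 against 2443, 1766, 10570 and 2154. The ratio of the largest Out to the largest In rearrangement was lowest in anti-PD-1 replicate 1, at 0.0599, and highest in control replicate 2, at 1.04. Its median was 0.312. No V gene was common to these leaders. Trbv26 and Trbv12-1 led 3 samples each, and Trbv3 and Trbv20 led 2 each.

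The share of Out rearrangements was set out by template count, over all samples pooled. This is a description with no test, since frame and template count chose the members. Among rearrangements of 1 template, Out made up 36.9% of In and Out together (33.9 to 44.6% over the samples). The share was 32.6% at 2 to 4 templates, 30.8% at 5 to 9 and 30.5% at 10 to 19. It was 28.8% at 20 to 49, 31.1% at 50 to 99, 26.2% at 100 to under 500 and 23.7% at 500 or more. At 50 to 99 templates it ran from 23.1% to 60.0% over the samples. At 500 or more templates it ran from 0% to 40.0% over the samples, which held few rearrangements of that size.

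The question of a partner was then put to the template counts. An In rearrangement of the same sample within 10% of an Out rearrangement's templates was counted as a candidate partner. Of the 16 largest Out rearrangements, 9 had at least 1 candidate, 3 had exactly 1 and 7 had none. The nearest In rearrangement differed by a ratio of 0.746 to 1.46, with a median of 1.03. The leaders with exactly 1 candidate were those of control replicate 2, control replicate 3 (1664 templates, against 1635 for an In rearrangement of Trbv2 and Trbj2-3) and anti-PD-1 replicate 3. In control replicate 3 that In rearrangement was also the only candidate of another Out rearrangement, with 1554 templates. In anti-PD-1 replicate 3 the candidate of 1186 templates was also the only candidate of another Out rearrangement, with 1148. Among those without any candidate were the Trbv20 rearrangement of combination replicate 3, with 4538 templates between In rearrangements of 10570 and 3872, and the Trbv20 rearrangement of combination replicate 4, with 820 templates and the nearest In rearrangement at 560.

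Whether such matches were particular to out-of-frame rearrangements was read against the density of In rearrangements on the same scale, by asking for each In rearrangement whether another In rearrangement lay within 10% of it. At 500 or more templates, 23 of 33 Out rearrangements (69.7%) had a candidate and 15 had exactly 1, against 56 of 106 In rearrangements (52.8%) and 33 with exactly 1. At 100 to under 200 templates the shares were 97.7% and 98.4%, with medians of 5.5 and 5 candidates. At 20 to 49 templates all 524 Out rearrangements had a candidate, with a median of 20.5. A match in templates therefore singled out 1 In rearrangement mainly at high counts. Over all members, 894 of 911 (98.1%) had a candidate, and 33 had exactly 1. Of those 33, 18 shared their sole candidate with another Out rearrangement, over 9 In rearrangements. These shares were described and not tested, since template counts chose the members.

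**Figure D2:**
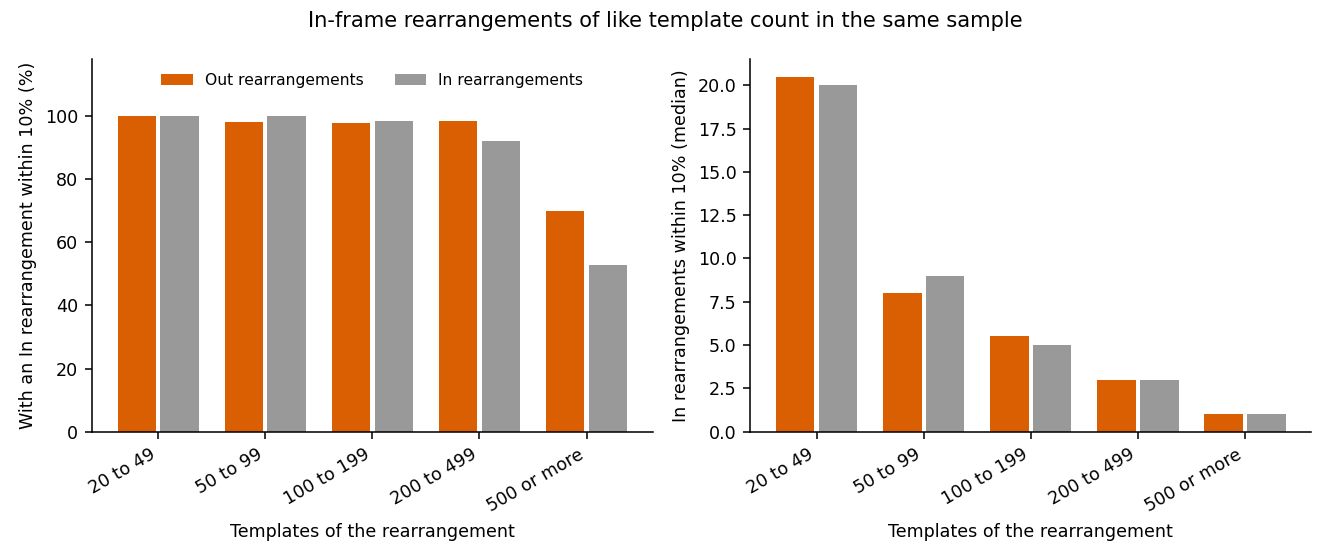
Left, share of rearrangements (%) with an In rearrangement of the same sample within 10% of their templates, by template class, for Out (orange) and In (grey) rearrangements of 20 or more templates. Right, median number of such In rearrangements. The Out and In bars differ most at 500 or more templates, at 69.7% and 52.8%.

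Rearrangements found again in other samples gave a further view of pairing. All 911 sequences were distinct, and none reached 20 templates in 2 samples. The identical 87 nucleotides were present in another sample, at any count, for 34 of the 911 (3.73%), against 20.2% of In rearrangements of 20 or more templates and 1.21% of Out rearrangements under 20. These 34 gave 37 occurrences, of which 30 were at 1 template and the largest was at 4. Of the 240 ordered pairs of samples, 25 held any. Control replicate 1 into control replicate 2, and anti-PD-1 replicate 2 into anti-PD-1 replicate 1, held 6 occurrences each, and no other pair held more than 2. Whether molecules had passed between these samples during handling was not tested.

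In 15 of the 37 occurrences, a candidate In partner of the Out rearrangement was in the same other sample. The members had 0 to 45 candidates each, and abundant In rearrangements recurred by themselves: 12 of 104 of control replicate 1 (11.5%) were in control replicate 2 and 22 of 162 of anti-PD-1 replicate 2 (13.6%) in anti-PD-1 replicate 1. In the 15 occurrences the candidate had 1 to 138 templates in the other sample, against 1 to 4 for the Out rearrangement, so that the counts did not always match there. The 2 occurrences with the most templates in the sample of origin are printed below, with capitals as above. In ANT008 replicate 1, an Out rearrangement of Trbv12-2 and Trbj2-2 held 951 templates and an In rearrangement of Trbv14 and Trbj2-1 held 962, and each had 2 templates in ANT008 replicate 4. That Out rearrangement also had 1 template in anti-PD-1 replicate 3, where no candidate was present. In control replicate 1, an Out rearrangement of Trbv12-1 and Trbj2-7 held 966 templates and an In rearrangement of Trbv5 and Trbj2-1 held 1000, and they had 1 and 3 templates in control replicate 2.
ANT008 replicate 1, Out: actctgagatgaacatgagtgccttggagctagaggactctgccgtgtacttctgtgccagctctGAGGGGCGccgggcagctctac
ANT008 replicate 1, In: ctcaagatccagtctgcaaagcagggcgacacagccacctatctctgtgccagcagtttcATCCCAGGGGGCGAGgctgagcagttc
Control replicate 1, Out: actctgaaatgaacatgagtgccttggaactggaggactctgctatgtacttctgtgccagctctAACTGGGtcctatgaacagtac
Control replicate 1, In: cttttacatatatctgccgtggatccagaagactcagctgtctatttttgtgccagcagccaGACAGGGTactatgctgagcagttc
The Trbv3 rearrangement with 7776 templates in control replicate 2 was present at 1 template in control replicate 3, and its candidate In partner was not among the rearrangements of that sample.

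An out-of-frame rearrangement can also be an in-frame one read with a missing or added base. Each member was aligned with the In rearrangements of its sample that had the same J gene and more templates. Within 3 edits lay 15 of 911 (1.65%), with 20 to 136 templates and 538 templates in all, and 6 of these lay within 1 edit. The largest within 1 edit, shown because it differs in a run of G, joined Trbv13-1 to Trbj2-1 in combination replicate 3. It held 56 templates against 571 for the In rearrangement.
Combination replicate 3, Out, 1 edit: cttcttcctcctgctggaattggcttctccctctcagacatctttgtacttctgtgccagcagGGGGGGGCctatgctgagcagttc
Combination replicate 3, In, 1 edit: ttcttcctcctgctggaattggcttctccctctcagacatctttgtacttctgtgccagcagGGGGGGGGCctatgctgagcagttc
Over all members with such an In rearrangement the median distance was 21 edits, and 75 members had none to be aligned with. None of the 16 largest Out rearrangements was among the 15.

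The J gene was not used to choose the members, so it could be tested. The J2 cluster supplied fewer of the abundant Out rearrangements than of either other class. Its share per sample was lowest at 40.8%, in anti-PD-1 replicate 1, and highest at 68.2%, in anti-PD-1 replicate 4. The median among the members was 59.8%. The share ran from 62.7% to 67.7% among Out rearrangements under 20 templates, and from 64.3% to 84.1% among In rearrangements of 20 or more. The mean was 57.2% ± 9.23 (SD, n = 16), 65.7% ± 1.24 and 72.4% ± 6.10, respectively. Against Out rearrangements under 20 templates the share was lower in 13 of 16 samples, with a mean difference of -8.54 percentage points (SE 2.22, exact sign-flip permutation test, two-sided, adjusted p = 0.00105). With the cut at 50 templates this difference was -7.42 points and no longer passed (adjusted p = 0.0607). Against In rearrangements of 20 or more templates it was lower in 16 of 16 samples, with a mean difference of -15.2 points (SE 2.38, p = 3.05e-05, the smallest this permutation test can give, adjusted p = 0.000183).

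Junctions differed in the same comparisons. The members carried 3.93 ± 0.459 inserted nucleotides (SD, n = 16 sample means), In rearrangements of 20 or more templates 3.31 ± 0.256, and Out rearrangements under 20 templates 4.15 ± 0.151. The members exceeded the abundant In rearrangements in 14 of 16 samples, by 0.613 nucleotides (SE 0.102, exact sign-flip permutation test, adjusted p = 0.000458). The difference of -0.221 nucleotides from the rarer Out rearrangements did not pass the test (SE 0.1097, exact permutation, adjusted p = 0.0758), but it passed without combination replicate 2 (difference -0.294, adjusted p = 0.00586) and without anti-PD-1 replicate 3 (difference -0.255, adjusted p = 0.0492). No inserted nucleotide was recorded in 7.35% of the members, 7.80% of rarer Out rearrangements and 10.1% of abundant In rearrangements.

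The third complementarity-determining region (CDR3), the loop encoded by the join, was 42.1 ± 0.605 nucleotides long in the members, 42.3 ± 0.121 in the rarer Out and 41.2 ± 0.442 in the abundant In rearrangements (SD, n = 16 sample means). Members were longer than abundant In rearrangements in 14 of 16 samples, by 0.870 nucleotides (SE 0.191, exact permutation, adjusted p = 0.000671). The difference from the rarer Out rearrangements was -0.246 (SE 0.153, exact permutation, adjusted p = 0.128), and without combination replicate 2 it was -0.336 (exact permutation, adjusted p = 0.0257). Lengths of the members ran from 26 to 70 nucleotides with a median of 43. In-frame lengths are multiples of 3 and can take fewer values, which bears on any comparison of means. Of the members, 471 were 1 and 440 were 2 nucleotides beyond a multiple of 3.

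**Figure D3:**
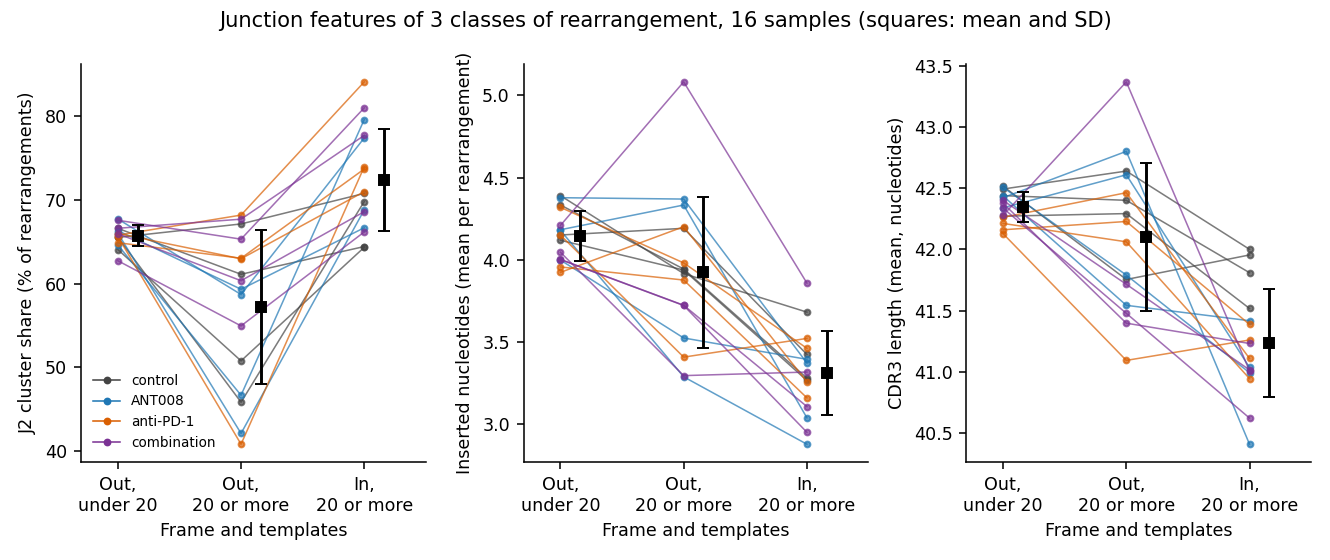
J2 cluster share (%), mean inserted nucleotides and mean CDR3 length (nucleotides) in Out rearrangements under 20 templates, Out rearrangements of 20 or more and In rearrangements of 20 or more. Lines join the values of 1 sample, coloured by group, and black squares give the mean and SD of 16 samples. The J2 share falls from Out under 20 to Out of 20 or more in 13 samples and is higher in In of 20 or more in all 16.

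The longest was the member with the most nucleotides recorded as inserted, shown because these hold a copy of its own J end. It joined Trbv2 to Trbj2-1 in combination replicate 2 with 262 templates, and 32 nucleotides were recorded as inserted.
Combination replicate 2, Out, most inserted: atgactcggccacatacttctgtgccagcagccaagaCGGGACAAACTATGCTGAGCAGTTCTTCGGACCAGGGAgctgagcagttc
Its last 12 bases occur 2 times in the sequence, the first time within the capitals, and no other member repeats its last 12 bases. Read on from the tgt that opens the CDR3, the first copy stands in frame. The bases recorded as inserted thus include J sequence, and the count of 32, the length and the Out call of this member are uncertain. It was kept in the means and ranges above, and how the second copy arose was not tested. It was present at 2 templates in anti-PD-1 replicate 4.

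D genes were called from a few bases and are uncertain. Members of the J1 cluster with a called D gene used Trbd1 in 274 and Trbd2 in 27, so that Trbd2 made up 8.97%, against 10.6% in rarer Out and 10.0% in abundant In rearrangements. In members of the J2 cluster, 193 used Trbd1 and 226 Trbd2. The Trbd2 share of 53.9% stood beside 63.4% in rarer Out and 55.9% in abundant In rearrangements. No D gene was called in 21.6% of J1 and 20.5% of J2 members. These shares were not tested.

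Single J genes were tested on the number of rearrangements. Against rarer Out rearrangements, 3 of 14 J genes passed (21.4%, edgeR quasi-likelihood test with Benjamini-Hochberg adjustment). Trbj2-4 made up 5.21% ± 3.48 of the members and 7.90% ± 0.626 of the rarer Out rearrangements (log2 fold change -0.72, SE 0.22, edgeR adjusted p = 0.00747). Trbj2-5 made up 7.10% ± 3.11 against 10.9% ± 0.482 (log2 fold change -0.61, SE 0.17, edgeR adjusted p = 0.00653). Both were lower in 13 of 16 samples. Both calls were lost when the 15 members close in sequence to a larger In rearrangement were left out (Trbj2-4 -0.41 and Trbj2-5 -0.34, adjusted p = 0.130 for each). None of those 15 used Trbj2-4, and Trbj2-5 was used by a single member, of 25 templates in combination replicate 1. The cause of the loss of these calls was not tested. Trbj1-3 made up 8.79% ± 4.71 against 5.10% ± 0.451 and was higher in 12 of 16 samples (log2 fold change 0.67, SE 0.21, edgeR adjusted p = 0.00912), and its direction turned when the cut was a fixed share of each sample's templates (log2 fold change -0.46, adjusted p = 0.391) and the call was lost with a cut of 50 templates (0.18, adjusted p = 0.633).

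Against abundant In rearrangements, 3 of 12 J genes passed (25.0%, edgeR). Trbj1-2 was the clearest, at 11.1% ± 5.62 of members and 4.88% ± 2.38 of abundant In rearrangements, higher in 14 of 16 samples (log2 fold change 0.99, SE 0.22, edgeR adjusted p = 0.000115). Trbj1-3 was higher in 13 of 16 samples, with 4.94% ± 1.71 of abundant In rearrangements (log2 fold change 0.71, SE 0.22, edgeR adjusted p = 0.00948). This call was lost with a cut of 10 templates (0.32, adjusted p = 0.0629), of 50 (0.50, adjusted p = 0.593) and of a fixed share (0.38, adjusted p = 0.665). Trbj2-7 was the most frequent J gene of the members, with 203, and made up 22.8% ± 6.48 of them but 29.9% ± 5.33 of abundant In rearrangements (log2 fold change -0.42, SE 0.14, edgeR adjusted p = 0.0101). That call was lost without control replicate 1 (log2 fold change -0.15, adjusted p = 0.364) or control replicate 2 (-0.13, adjusted p = 0.505), and with a cut at a fixed share (-0.51, adjusted p = 0.0745). The next most frequent J genes, Trbj2-1 with 101 members and Trbj1-4 with 89, passed in neither comparison (edgeR adjusted p from 0.0571 to 0.407). Trbj1-7 and Trbj2-6 had no member, and 36 and 37 rarer Out rearrangements over all samples.

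V genes were spread widely. The members used 25 V genes, and the most frequent were Trbv4 with 78, Trbv24 with 76, Trbv19 with 61, Trbv2 with 60 and Trbv15 with 56. Against rarer Out rearrangements, 1 of 26 V genes passed (3.85%, edgeR), Trbv13-2, with 6.27% ± 3.37 of members and 7.80% ± 0.963 of rarer Out rearrangements (log2 fold change -0.64, SE 0.19, edgeR adjusted p = 0.0157). It was lower in 11 of 16 samples. The call was lost without combination replicate 2, combination replicate 3, control replicate 2 or control replicate 4 (adjusted p from 0.0534 to 0.230). With no scaling beyond library size it was also lost (log2 fold change -0.43, adjusted p = 0.193), and 0 V genes passed, with 4 at an unadjusted p under 0.05 in edgeR. The median log2 fold change of all V genes moved from -0.28 with edgeR's scaling to -0.07 without it. None of the 5 most frequent V genes passed in this comparison (edgeR adjusted p from 0.142 to 0.859).

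Against abundant In rearrangements, 8 of 21 V genes passed (38.1%, edgeR), 2 higher and 6 lower in the members, and with library size alone 9 passed, 5 higher and 4 lower, of which 6 were among the 8. The median of all V genes was -0.31 and -0.16, respectively. The directions below were the same with either scaling. Trbv24 stood furthest apart, at 7.81% ± 3.20 of members and 1.28% ± 1.21 of abundant In rearrangements, higher in 15 of 16 samples and equal in anti-PD-1 replicate 4, which held neither (log2 fold change 2.40, SE 0.31, edgeR adjusted p = 1.71e-12). Trbv4 was higher in 16 of 16 samples, at 8.58% ± 2.65 against 4.89% ± 2.28 (log2 fold change 0.60, SE 0.21, edgeR adjusted p = 0.0155), but did not pass without anti-PD-1 replicate 4 (log2 fold change 0.22, adjusted p = 0.371), with a cut of 50 templates (0.37, adjusted p = 0.453) or with a fixed share (0.33, adjusted p = 0.618).

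The 6 lower V genes were Trbv13-3, Trbv13-1, Trbv14, Trbv3, Trbv1 and Trbv19. Neither these 6 nor Trbv24 and Trbv4 passed against rarer Out rearrangements (edgeR adjusted p from 0.0590 to 0.909). Of rarer Out rearrangements, Trbv24 made up 6.22%, Trbv4 7.82%, Trbv13-3 4.41% and Trbv14 2.24%. Trbv13-3 made up 3.51% ± 1.95 of members and 8.81% ± 2.76 of abundant In rearrangements, lower in 15 of 16 samples (log2 fold change -1.31, SE 0.23, edgeR adjusted p = 6.03e-07). Trbv14 made up 1.66% ± 1.66 against 4.33% ± 1.94 (log2 fold change -1.17, SE 0.36, edgeR adjusted p = 0.00467), and did not pass with a cut of 10 templates (-0.38, adjusted p = 0.149). Trbv13-1, Trbv3, Trbv1 and Trbv19 had log2 fold changes of -0.83, -0.77, -0.78 and -0.50. With a cut of 50 templates none of these 4 passed (Trbv13-1 -0.63, Trbv3 -0.38, Trbv1 -0.82 and Trbv19 -0.88, adjusted p = 0.199, 0.416, 0.199 and 0.0514). With a fixed share Trbv13-1 (-1.02, adjusted p = 0.0701) and Trbv3 (-0.64, adjusted p = 0.245) did not pass, and with a cut of 10 Trbv1 did not (-0.19, adjusted p = 0.405). Trbv13-3 passed in all 8 alternatives and in all 16 fits with a sample left out. Trbv1 was lost in 3 of those 16 fits, without ANT008 replicate 2, anti-PD-1 replicate 3 or combination replicate 1 (adjusted p up to 0.0662), and Trbv19 was lost in 7, without ANT008 replicate 2 or 4, anti-PD-1 replicate 1, 2 or 3, or combination replicate 1 or 4 (adjusted p up to 0.109). With library size alone, neither Trbv1 nor Trbv19 passed (adjusted p = 0.0650 and 0.165). Names of closely related V genes, such as the Trbv13 genes, depend on how the service placed similar sequences.

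**Figure D4:**
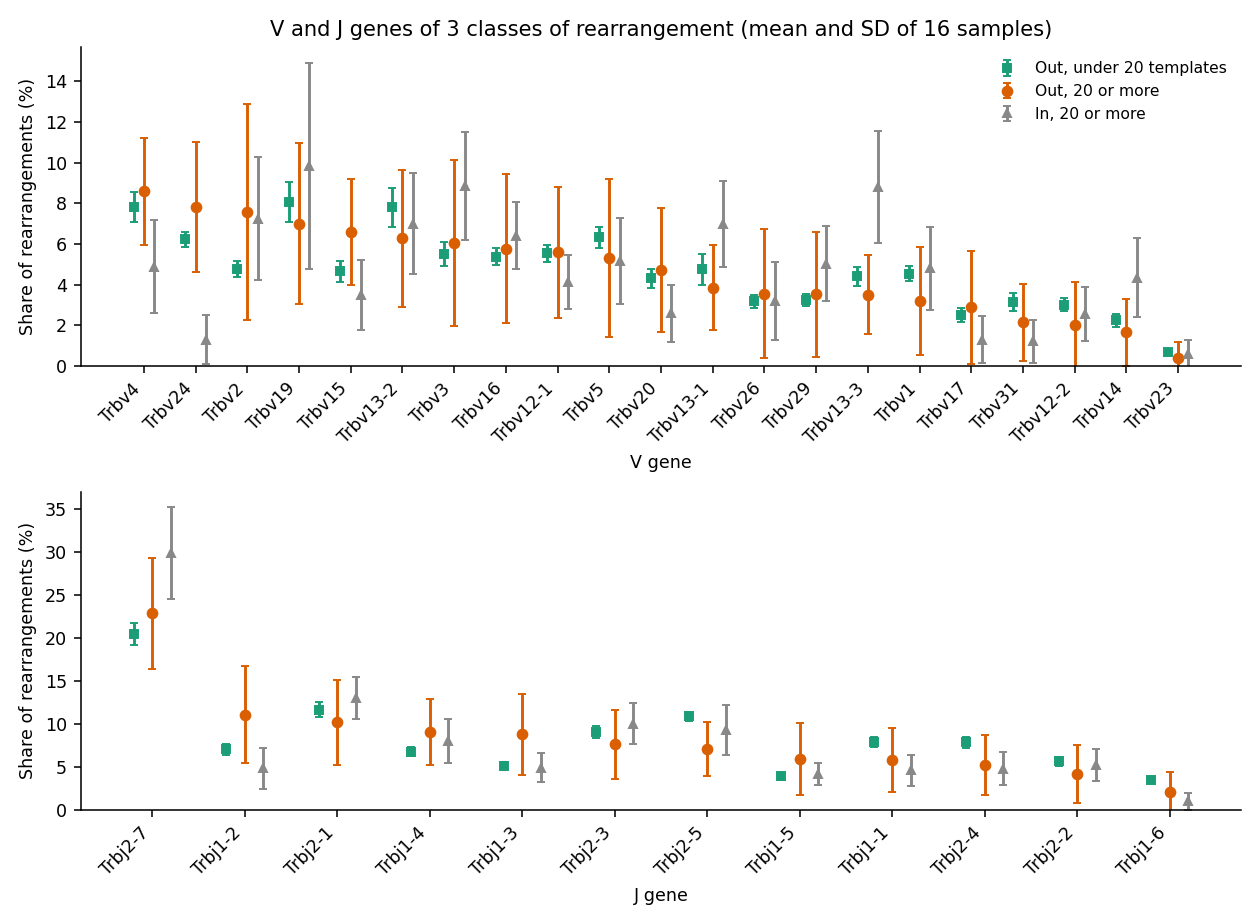
Share of rearrangements (%) by V gene (top) and J gene (bottom) in Out rearrangements under 20 templates (squares), Out rearrangements of 20 or more (circles) and In rearrangements of 20 or more (triangles), as mean and SD of 16 samples. Trbv24 stands at 7.81% of abundant Out and 1.28% of abundant In rearrangements, and Trbj2-7 at 22.8% and 29.9%.

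The gap for Trbv24 held beyond the abundant rearrangements. In made up 28.3% to 35.2% of In and Out rearrangements of Trbv24 per sample (median 31.5%), against 59.4% to 68.0% for all other V genes together. The sequences printed next show why the frame call of this gene needs care, with only the bases TAG in capitals for the In rearrangement.
Anti-PD-1 replicate 3, In, Trbv24: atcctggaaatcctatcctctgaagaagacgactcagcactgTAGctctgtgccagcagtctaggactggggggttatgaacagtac
Anti-PD-1 replicate 3, Out, Trbv24: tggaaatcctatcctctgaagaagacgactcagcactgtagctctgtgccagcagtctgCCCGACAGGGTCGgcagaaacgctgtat
In the In rearrangement, the largest of Trbv24 with 3827 templates, TAG stands in the reading frame of the CDR3, before it starts, and TAG is a stop codon. The same bases are in the Out rearrangement of Trbv24 and Trbj2-3 with 793 templates, whose capitals mark the bases between V and J. Of 2032 In rearrangements of Trbv24, 2023 carried a stop codon of this kind, as did all 31 with 20 or more templates, and no other V gene had one in an In rearrangement of that size. An In call for Trbv24 in these values therefore does not by itself mark a rearrangement that can encode a β chain, if the stretch was read as it stands in the cells. Without those 31, the J2 share, inserted nucleotides and CDR3 length of the members still differed from those of abundant In rearrangements in the same direction and passed. Among V genes with 500 or more rearrangements, the other V genes with a low In share were Trbv21 (30.5%) and Trbv22 (30.6%), and the next was Trbv4 (49.03%), while the highest was Trbv12-2 (76.4%).

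V genes annotated as pseudogenes supplied 43 members (4.72%), 37 of them Trbv29, against 4.11% of rarer Out and 5.31% of abundant In rearrangements. Of the In and Out rearrangements of Trbv29, 72.7% were In, against 64.3% over all V genes, so its annotation did not go with a low In share. Trbv31, which lies at the far end of the locus in the opposite orientation, supplied 24 members (2.63%), against 3.29% and 1.36%. Neither list was tested.

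Whether treatment changed the abundant Out rearrangements was asked for 5 measures in each treated group against control, 15 comparisons in all. The rule did not use treatment. All of these measures except the J2 share are themselves built from frame and template count, the values the rule used. None of the 15 comparisons passed after adjustment (exact permutation form of Dunnett's comparison, two-sided). The p of this comparison already allows for all treated groups of a measure. Adjustment over the 15 comparisons came on top, which made a pass harder. Apart from the ratio of the largest rearrangements, the measures rest on the cut of 20 templates, which scales with depth. With the cut at a fixed share of each sample's templates none of these measures passed either (adjusted p from 0.529 to 1). Per 10000 templates, the samples held 11.9 ± 1.98 members in control, 12.5 ± 1.87 with ANT008, 13.7 ± 3.83 with anti-PD-1 and 12.4 ± 1.44 in combination (SD, n = 4). The adjusted p-values of the exact permutation test ran from 0.962 to 0.989.

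Members made up 60.6% ± 9.85 of the Out templates in control, 36.5% ± 13.5 with ANT008, 42.2% ± 15.3 with anti-PD-1 and 41.6% ± 15.6 in combination (SD, n = 4). The control samples held 54.2%, 67.9%, 50.3% and 70.1%. The ANT008 samples held 55.5%, 34.6%, 23.7% and 32.2%, so that only ANT008 replicate 1 fell within the control range. In the other groups anti-PD-1 replicates 2 and 3, at 55.7% and 55.2%, and combination replicate 3, at 63.9%, lay within it. The largest difference from control was that of ANT008, at -24.1 percentage points (SE 9.72, exact permutation p = 0.0800, adjusted p = 0.534). Of all templates, members made up 17.5% ± 5.06 in control, 10.1% ± 5.32 with ANT008, 11.6% ± 3.43 with anti-PD-1 and 12.01% ± 4.59 in combination, and these did not pass either (exact permutation, adjusted p from 0.534 to 0.574).

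The log2 ratio of the largest Out to the largest In rearrangement was -0.77 ± 0.86 in control, -1.71 ± 1.05 with ANT008, -2.64 ± 1.00 with anti-PD-1 and -1.35 ± 0.64 in combination (SD, n = 4). The difference of -1.87 for anti-PD-1 (SE 0.64) had an exact permutation p of 0.0310, which already allowed for all treated groups. After the further adjustment over the 15 comparisons it was 0.465. The J2 share of members was 56.2% ± 9.67, 51.7% ± 8.65, 58.7% ± 12.2 and 62.1% ± 5.65 in the same order of groups, and did not pass (exact permutation, adjusted p from 0.962 to 0.989).

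Whether the effect of ANT008 differed with and without anti-PD-1 was tested for the same 5 measures, and none passed after adjustment. The closest was the log2 ratio of the largest Out to the largest In rearrangement, with a difference of 2.23 (SE 0.90, permutation test with 100000 resamples, p = 0.0295, adjusted p = 0.148).

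The extent to which templates were gathered in abundant rearrangements was set side by side for both frames. This is a description with no test, because both shares use the cut that chose the members and come from the same library, with its depth. Over the 16 samples, the share of Out templates in rearrangements of 20 or more and the share of In templates in rearrangements of 20 or more had a Pearson r of 0.810 and a Spearman rho of 0.782. In templates were gathered to 33.7% in anti-PD-1 replicate 4 at the lowest and 79.6% in control replicate 4 at the highest. Without these 2 samples, the farthest from the median, r was 0.760 and rho 0.701. It was the only relation between measures computed across samples. With the cut set at a fixed share of each sample's templates in place of 20, r was 0.729. With 4 samples in a group, no value within groups is given.

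**Figure D5:**
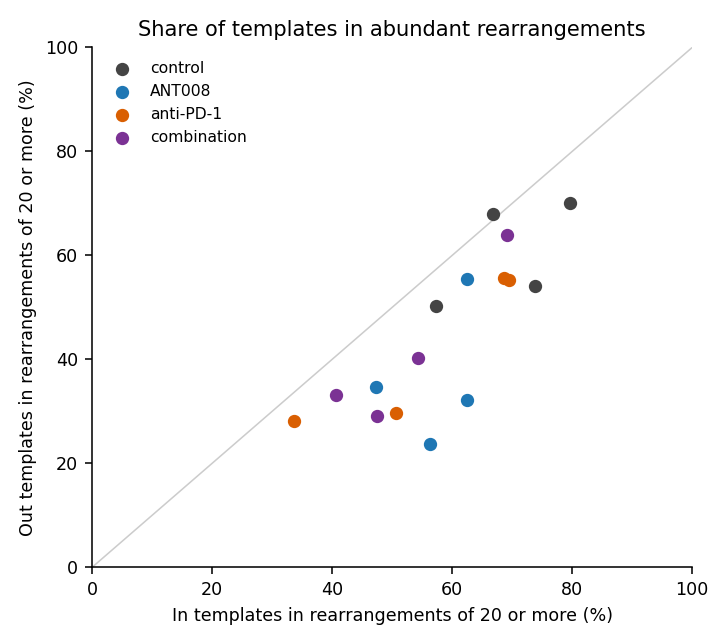
Share of Out templates in Out rearrangements of 20 or more templates (vertical axis, %) against the share of In templates in In rearrangements of 20 or more (horizontal axis, %), 1 point per sample, coloured by group, with the line of equality. The points rise together (r = 0.810, n = 16 samples), and the point of control replicate 2 lies above the line.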

How the data were processed

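TCRβ rearrangements of 16 samples were read from the tables of the sequencing service, with 1 table per sample. Per the file headers, the deposited template counts are whole numbers estimated by the service after multiplex V and J primer amplification with a synthetic repertoire to correct primer bias. The deposited frequency is a fraction of all templates of the sample, and was checked against the template counts. The deposited CDR3 lengths and inserted nucleotides are lengths in nucleotides, and the frame and the V, D and J genes were called by the service. The aligner and genome build are not given in the sources used here, so no coordinates are given. All 35 V and 14 J gene names were matched to mouse gene symbols in RefSeq.

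Out rearrangements of 20 or more templates were taken, and compared within each sample with Out rearrangements under 20 and In rearrangements of 20 or more. The members, lists and tests were chosen with earlier results of these data known. Differences within samples were tested by exact sign-flip permutation, adjusted over 6 comparisons by Benjamini-Hochberg. Treatments were compared with control over all 10510500 assignments of samples to groups, each time by the largest difference among the treated groups. Benjamini-Hochberg adjustment over 15 comparisons followed. The interaction of treatments used 100000 resamples. Numbers of rearrangements per V or J gene (genes with at least 10 rearrangements) were tested with edgeR 4.0.16 in R 4.3.3, with the sample as a term, and with DESeq2 1.42.0 as an alternative. The genes named were those past a test and the 5 V and 3 J genes with the most members, and the rearrangements named were the largest Out rearrangement of each sample with its nearest In rearrangement. Other single rearrangements, among them the pair of combination replicate 3 and those within 1 edit, of Trbv24, or with the most inserted nucleotides, were chosen after their values were seen, as were the V genes named by their In share. Shares of templates have Wilson intervals at 95%, which cover counting error only. Python 3.11.15, numpy 2.4.6, pandas 2.3.3, scipy 1.17.1, numba 0.67.0 and matplotlib 3.10.9 were used.

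Other template cuts (10, 50 or a fixed share of all templates), other scalings, members close in sequence to a larger In rearrangement left out, and each sample left out in turn were tried. Leaving out In rearrangements with a stop codon before the CDR3, leaving out Trbv24, and the alternatives for members found in other samples or close to an In rearrangement were added after seeing the data. Replicate numbers were not used as pairs in the main tests.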

Additional observations from a re-analysis of the deposited data

Results flagged for a closer look

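In anti-PD-1 replicate 4, 19.4 Out rearrangements of 20 or more templates were counted per 10000 templates, and the other anti-PD-1 samples held 11.3 to 12.3. The sample stood apart by 0.876 of the whole range of its group. It was also the shallowest sample, with 11317 templates, and 24 groups of 4 samples were examined in this way, of which chance sets apart about 1 in 20. The part of depth in this value was not tested.

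Outside the In and Out classes, 46 Stop rearrangements reached 20 or more templates, in 15 of the 16 samples. Trbv4 supplied 29 of them, and the largest, of Trbv15 in anti-PD-1 replicate 3, held 920 templates.

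Among In rearrangements of 20 or more templates, 31 carried a stop codon in the reading frame before the CDR3, all of Trbv24.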

How the results depend on the processing

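The lower J2 share, more inserted nucleotides and longer CDR3 of abundant Out against abundant In rearrangements kept their direction and passed in all 6 alternatives and without any one sample. Against rarer Out rearrangements, the J2 share did not pass with a cut of 50 templates (-7.42 points, adjusted p = 0.0607). Inserted nucleotides passed with a cut of 10 (-0.311) and without Trbv24 (-0.289), and CDR3 length likewise (-0.315 and -0.312). With a sample left out, these differences ran from -0.294 to -0.177 and from -0.336 to -0.194 nucleotides. The causes were not tested.

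Rearrangements per 10000 templates turned below control with a cut of 50 (ANT008 -0.379, combination -1.08) and, for combination, with a fixed share of templates (-0.457). With a sample left out, the difference ran from -0.0605 to 2.67 for anti-PD-1, turning without anti-PD-1 replicate 4, and from -0.0734 to 1.32 for combination, turning without control replicate 2. The J2 share with anti-PD-1 ran from -0.921 to 8.51 points, turning without control replicate 4 or anti-PD-1 replicate 4.

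The V genes past the test against rarer Out rearrangements numbered 1, and 3 with DESeq2, 0 with library size only, without the filter on rare genes or without members close to an In rearrangement, 2 with a cut of 10, 7 with a cut of 50 and 10 with a fixed share. They ran from 0 to 2 with a sample left out. The J genes numbered 3, and 7 with DESeq2, 8 with a cut of 10, 7 with a fixed share and 5 without members close to an In rearrangement, where Trbj2-4 and Trbj2-5 were no longer among them. They ran from 3 to 6 with a sample left out, with 5 or 6 without ANT008 replicate 2, anti-PD-1 replicate 2, combination replicate 3 or 4, or control replicate 4. Trbj1-3 turned to -0.46 with a fixed share. Against abundant In rearrangements, 3 V genes passed with a cut of 50, and 5 and 1 J genes with a cut of 10 and a fixed share. For some J gene fits DESeq2 used gene-wise dispersions. With a cut of 50, 8.53% of members had exactly 1 candidate, against 3.62%.

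With the replicate block, the difference of anti-PD-1 from control in the log2 ratio of the largest rearrangements was -1.87, as without it. No treatment comparison passed (permutation within replicate numbers, adjusted p from 0.552 to 0.979). Between groups, same-numbered samples had correlations of V gene shares from -0.67 to 0.25. Samples of different number had correlations from -0.46 to 0.56, so the pairing of numbers was not borne out. Whether the numbers mark a shared source was not tested. With control and 1 treated group alone in the exact permutation test, adjusted p ran from 0.343 to 0.80. The smallest p this form of the test can give is 0.0286, before adjustment over all treatment comparisons. No comparison could therefore pass the adjustment by itself, and no conclusion is drawn from this form. Depth limits the cut most in anti-PD-1 replicate 4, with 11317 templates.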
